A study of Arabidopsis thaliana with 6 samples.

Results

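Whole seedlings of an Arabidopsis thaliana line labelled nar1-4/- were compared with wild-type seedlings on Affymetrix ATH1 arrays, with 2 arrays for each genotype. The comparison took the 4 arrays whose titles name these genotypes, of 6 arrays in the series, and all 22746 probe sets left after 64 control probe sets had been set aside. The 2 other arrays hold seedlings labelled nbp35-3/-, and they were used to estimate the spread and for values side by side. Their source name gives another allele, nbp35-4, and the title was followed. All groups share the Col-0 background, an age of 2 weeks, growth on MS plates at 22 °C and a cycle of 16 h light and 8 h dark, and no group received a treatment that the labels name. The labels number the arrays of each genotype 1 and 2, the design text calls them biological replicates, and the sources used here do not explain the sign "/-". Nothing in the labels says whether plants were pooled, so p-values measure the spread between these samples only.

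Iron-sulphur (Fe-S) clusters are small inorganic cofactors that carry electrons or help catalysis in enzymes of respiration, photosynthesis, metabolism and DNA maintenance. Mitochondria and plastids have assembly systems of their own, and a separate machinery in the cytosol serves cytosolic and nuclear proteins. In that machinery NBP35 belongs to the scaffold on which clusters are built, and NAR1, itself an Fe-S protein, passes them towards the complex that inserts them into client proteins. The transcripts of NAR1 and NBP35 could not be used as a check of the genotypes, because 0 probe sets named either gene.

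Among the transcripts at least 2-fold from wild type in nar1-4 were 2 transporters of the MATE family (multidrug and toxic compound extrusion), genes known as responders to mitochondrial or oxidative stress, a defensin and a pectin methylesterase, which were higher, and a microtubule-associated SPIRAL1-like gene, a chitinase-family gene and AT5G14940, which were lower. Values are log2 as the authors deposited them, and a difference of 1 is a 2-fold change. Of 22746 probe sets, 21 (0.0923%) were at least 2-fold higher in nar1-4 within both replicate numbers and 10 (0.044%) were at least 2-fold lower within both, while 4 differed 2-fold or more in opposite directions. Because whole seedlings were used, fewer cells of a type and less RNA per cell cannot be told apart in any of these values.

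How firmly these differences stand depended on the arrays in the fit. With limma over all 6 arrays and the replicate number as a block, 0 probe sets (0.0%) passed a Benjamini-Hochberg adjusted threshold of 0.05, and the lowest adjusted value was 0.155. At an unadjusted p under 0.05 the same fit held 469 probe sets higher (2.06%) and 540 lower (2.37%), together 4.44%, where 5% would fall if no probe set differed. With limma on the 4 arrays of wild type and nar1-4 alone, again with the block, 24 probe sets passed the adjusted threshold, 16 higher (0.0703%) and 8 lower (0.0352%), with a smallest adjusted p of 0.00459. That fit has 1 residual degree of freedom and leans on a prior worth 6.28 degrees of freedom, against 2 and 3.65 in the fit of 6 arrays. All 24 were among the 31 that differed at least 2-fold in both numbers, which rest on the same 4 arrays. Hereafter a difference is nar1-4 minus wild type on the log2 scale with its standard error (SE) from the fit of 6 arrays, and "passed on the 4 arrays" means an adjusted p under 0.05 in the smaller fit.

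The arrays separated by replicate number more than by genotype. Between the numbers 1756 probe sets (7.72%) differed at least 2-fold in wild type and 1601 (7.04%) in nar1-4, against 138 (0.607%) between nar1-4 and wild type within number 1 and 238 (1.05%) within number 2. The nar1-4 array correlated with the wild-type array of its own number at 0.9943 and 0.9911 across probe sets, and with the other nar1-4 array at 0.9697. The sources used here do not say what a number shares, such as a sowing or a hybridisation day. Both organs of a seedling were represented, since PYK10, an abundant root glucosidase, read 11.70 to 12.17 and LHCB4.1, a light-harvesting protein of leaves, read 12.89 to 13.17 on the wild-type and nar1-4 arrays.

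**Figure D1:**
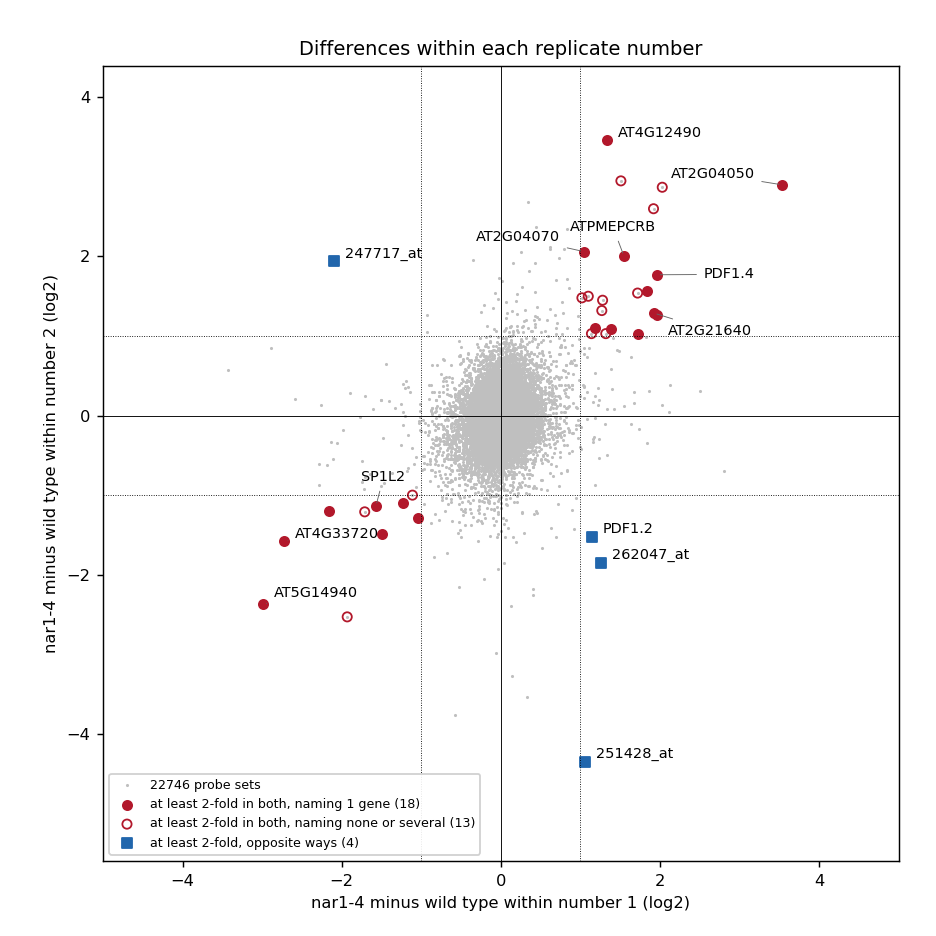
Difference between nar1-4 and wild type (log2) within number 1 on the horizontal axis and within number 2 on the vertical axis, 1 point per probe set, with dotted lines at 2-fold. The 31 probe sets in red lie beyond 2-fold on the same side in both numbers, 21 higher and 10 lower, and the 4 blue squares lie beyond 2-fold on opposite sides.

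Of the 31 probe sets, 18 named 1 gene: 11 were higher (0.0814% of the 13513 probe sets that name 1 gene) and 7 lower (0.0518%). The smaller of a member's differences reached down to 1.0 inside the set, and the nearest probe set outside stood at 0.99. The array annotation and gene table give 3 of these genes a written name, and the others are given by locus, with a role only for the few whose family is stated in the descriptions of the series used here.

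The largest difference belonged to AT2G04050, a MATE transporter, a family of membrane proteins that carry toxins and metabolites out of the cytosol. Its wild-type arrays read 2.98 and 3.51 and its nar1-4 arrays 6.51 and 6.41, in the order of the replicate numbers. The genotypes did not overlap, and both wild-type values lay near or under the first quartile of their array (3.48 to 3.58), so the height of the difference rests on a dim wild-type signal. The difference was 3.22 ± 0.20, or 9.3-fold, and it passed on the 4 arrays with a limma adjusted p of 0.00459. The nbp35-3 arrays read 3.15 and 3.79, close to wild type.

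AT2G04070, another MATE transporter, read 4.15 and 4.14 in wild type and 5.20 and 6.20 in nar1-4. The genotypes did not overlap here either, and the nar1-4 arrays were spread more widely than those of AT2G04050. The difference was 1.55 ± 0.28 and did not pass on the 4 arrays. In nbp35-3 the values were 4.27 and 4.16. Whether the probes of these related genes bind each other's transcripts was not tested.

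AT2G21640 (UPOX), a mitochondrial protein known for its induction by oxidative stress, read 5.37 and 5.82 in wild type and 7.29 and 7.11 in nar1-4. AT2G41730, grouped with it as a responder to mitochondrial or oxidative stress, read 6.36 and 6.49 in wild type and 7.74 and 7.57 in nar1-4. In both genes every nar1-4 array was above every wild-type array. The differences were 1.61 ± 0.25 and 1.23 ± 0.18, and each passed on the 4 arrays with a limma adjusted p of 0.0394. In nbp35-3 the values were 5.74 and 5.11 for AT2G21640 and 5.93 and 5.43 for AT2G41730. Whether the probe set of AT2G41730, 260522_x_at, also binds other transcripts was not tested.

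Other genes of respiratory and oxidative stress moved less. NDB4, which codes for an alternative NAD(P)H dehydrogenase of the inner mitochondrial membrane that passes electrons without pumping protons, read 3.97 and 3.83 in wild type and 4.51 and 4.78 in nar1-4. The genotypes did not overlap, with a difference of 0.74 ± 0.24. Of the 4 NDB genes it alone was higher in both numbers, and NDB2 read 6.50 and 6.71 against 6.29 and 7.25. Of 10 measured genes on a list of oxidative stress and antioxidant genes, 4 were higher in both numbers and 3 lower, against 25.7% higher and 28.2% lower among all probe sets that name 1 gene.

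Both further genes with written names that were higher belong to defence and the wall. PDF1.4, a plant defensin, one of the small cysteine-rich peptides that act against fungi, read 3.74 and 5.05 in wild type and 5.70 and 6.82 in nar1-4. ATPMEPCRB, also named pectin methylesterase 41, an enzyme that removes methyl groups from wall pectin, read 2.64 and 4.43 in wild type and 4.19 and 6.43 in nar1-4. PDF1.4 did not overlap between genotypes, whereas for ATPMEPCRB the genotypes overlapped and separated only within each number, because number 2 was higher in both genotypes. The differences were 1.87 ± 0.31 and 1.77 ± 0.18, and both genes passed on the 4 arrays (limma adjusted p of 0.0105 and 0.012). The number 1 wild-type value of ATPMEPCRB lay under the first quartile of its array.

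SP1L2, a SPIRAL1-like protein that sits on cortical microtubules and shapes directional cell growth, was lower in nar1-4. Its wild-type arrays read 7.39 and 6.35 and its nar1-4 arrays 5.82 and 5.21. The genotypes did not overlap, the difference was -1.36 ± 0.16, and the gene passed on the 4 arrays with a limma adjusted p of 0.0394. In nbp35-3 it read 6.43 and 5.90, between the other genotypes within each number.

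AT5G14940 showed the largest difference downwards. It read 6.76 and 6.00 in wild type, 3.77 and 3.63 in nar1-4, and 6.84 and 5.98 in nbp35-3. The nar1-4 arrays lay below all 4 other arrays, with a difference from wild type of -2.68 ± 0.20 and a limma adjusted p of 0.00772 on the 4 arrays. AT2G43590, of the chitinase family, whose enzymes cut the chitin of fungal walls, read 8.20 and 8.08 in wild type and 7.17 and 6.79 in nar1-4. The genotypes did not overlap, with a difference of -1.16 ± 0.13 that passed on the 4 arrays (limma adjusted p of 0.044). Its nbp35-3 arrays read 7.43 and 7.35, also below both wild-type arrays.

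**Figure D2:**
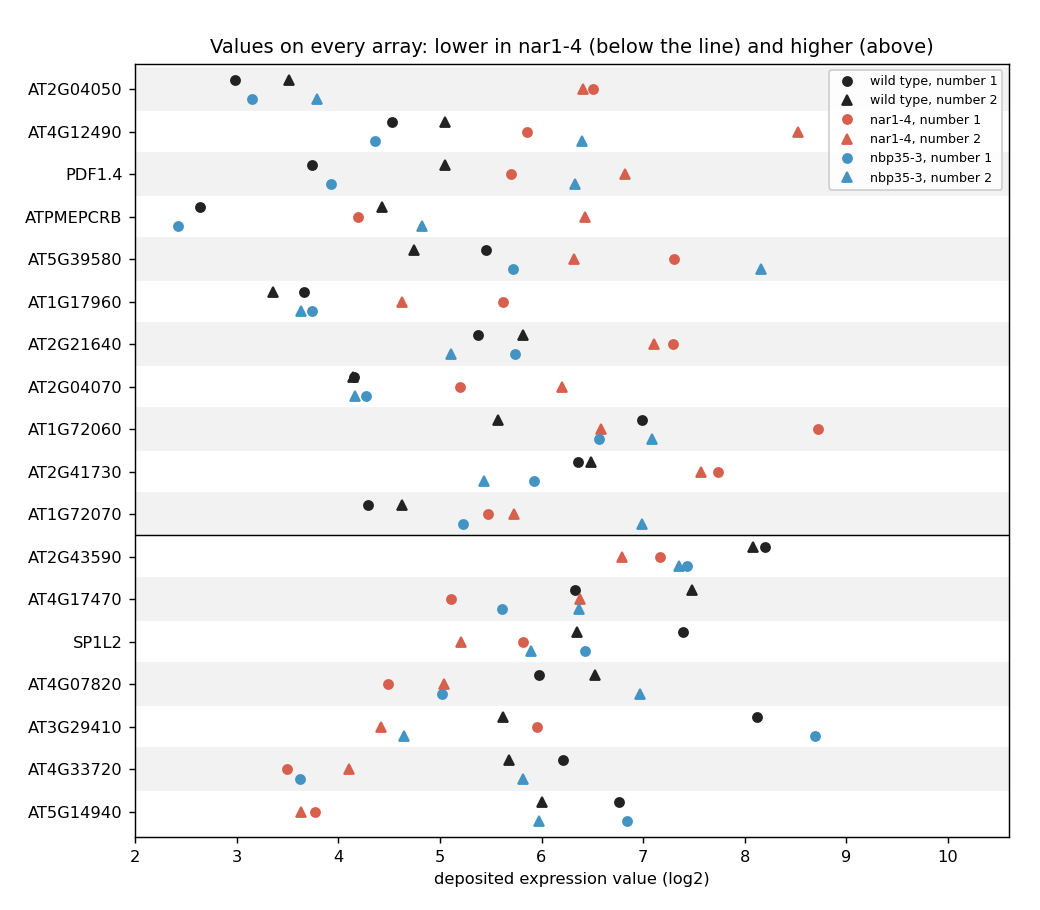
Deposited log2 value on every array for the 18 genes at least 2-fold from wild type within both numbers, with circles for number 1 and triangles for number 2. The 11 genes above the line were higher in nar1-4 and the 7 below it lower. AT2G04050 reads 6.41 to 6.51 in nar1-4 and 2.98 to 3.79 on the 4 arrays of the other genotypes.

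The gene table gives the other genes of the set no written name. Among those higher, AT4G12490 read 4.53 and 5.05 in wild type and 5.86 and 8.52 in nar1-4, with a difference of 2.40 ± 0.48, and AT1G17960 read 3.66 and 3.36 against 5.62 and 4.63 (1.62 ± 0.23). AT5G39580 read 5.45 and 4.74 against 7.30 and 6.32 (1.71 ± 0.81), and its nbp35-3 arrays, at 5.72 and 8.16, set the wide error. These 3 genes did not overlap between the genotypes, and AT1G17960 and AT5G39580 passed on the 4 arrays. The number 2 wild-type value of AT1G17960 lay under the first quartile of its array. AT1G72060 and AT1G72070, neighbours whose annotated spans overlap, differed by 1.38 ± 0.59 and 1.14 ± 0.37, so their signals may not be independent. In nbp35-3 AT1G72070 was also higher than wild type, by 1.65 ± 0.37.

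Among those lower, AT4G33720 read 6.21 and 5.68 in wild type and 3.49 and 4.1 in nar1-4, and AT4G07820 read 5.98 and 6.53 against 4.49 and 5.04. Both were free of overlap and passed on the 4 arrays, with differences of -2.15 ± 0.59 and -1.49 ± 0.36. The number 1 nar1-4 value of AT4G33720 lay under the first quartile of its array. AT4G17470 (-1.17 ± 0.16) and AT3G29410 (-1.68 ± 0.54) differed in the same direction in both numbers, but their genotypes overlapped. In nbp35-3 AT4G17470 was also lower than wild type, by -0.92 ± 0.16. In all, 9 of the 11 higher and 5 of the 7 lower genes had genotypes that did not overlap, in a table where 2084 probe sets (9.16%) lay wholly above wild type and 2587 (11.4%) wholly below.

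The other 13 probe sets of the 31 name no gene or several, 10 higher and 3 lower. Probe set 254818_at was furthest up, at 6.78 and 6.63 in wild type and 8.81 and 9.50 in nar1-4 (2.45 ± 0.32). Probe set 247691_at was furthest down, at 6.22 and 6.37 against 4.29 and 3.83 (-2.23 ± 0.28). Neither overlapped between genotypes, and both passed on the 4 arrays.

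The nbp35-3 seedlings share the wild-type arrays as control, so each comparison's values are given side by side. Over the 11 higher genes the nar1-4 differences ran from 1.14 to 3.22 with a median of 1.62, and the nbp35-3 differences from -0.74 to 1.84 with a median of 0.23. Over the 7 lower genes the nar1-4 differences ran from -2.68 to -1.16 with a median of -1.49, and those of nbp35-3 from -1.22 to 0.03 with a median of -0.71. A direct contrast of the mutants in limma called 0 probe sets at an adjusted p under 0.05 (0.0%), with a smallest adjusted p of 0.152 and 1263 probe sets (5.55%) at an unadjusted p under 0.05. Since the nar1-4 arrays chose these genes, that contrast is not independent of the choice.

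Below 2-fold, several genes of nutrient, developmental and stress biology had small errors. At 1.5-fold in both numbers the count was 81 higher (0.356%) and 78 lower (0.343%), of which 42 (0.311%) and 40 (0.296%) name 1 gene, and 30 probe sets moved at least 1.5-fold in opposite directions. All differences described from here on missed the adjusted threshold in both fits, so they are given with their SE only, and counts at an unadjusted limma p under 0.05 in the fit of 6 arrays are given for families.

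A list of genes picked by a sulphur-related pattern in their symbols or synonyms did not share a direction. Of 17 measured, 4 were higher and 3 lower in both numbers, with medians of 0.02 and 0.01. The 2 genes of the list at an unadjusted limma p under 0.05, APS4 and MSRB9, were lower. APS4, an ATP sulphurylase that carries out the entry step of sulphate assimilation, read 8.86 and 8.55 in wild type and 7.87 and 7.87 in nar1-4. MSRB9, a methionine sulphoxide reductase that repairs oxidised methionine, read 8.95 and 8.57 against 8.40 and 7.95. Neither gene overlapped between genotypes, with differences of -0.83 ± 0.14 and -0.58 ± 0.12. Of 5 methionine sulphoxide reductases, 1 was higher and 1 lower in both numbers. The other ATP sulphurylase measured, APS3, differed by -0.01 ± 0.25, and BGLU28, a glucosidase known for its induction under sulphur starvation, read 2.77 and 4.2 against 2.59 and 3.04.

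Of 3 measured genes on a list of iron-deficiency genes, 2 were higher in both numbers, and both differed more within number 2 than within number 1. BHLH101, a transcription factor induced when iron is short, read 3.10 and 6.46 in wild type and 3.72 and 8.55 in nar1-4, and PYE, another regulator of that response, read 5.25 and 5.67 against 5.39 and 6.34. Both genes were higher within each number, though the genotypes overlapped, with differences of 1.35 ± 0.49 and 0.41 ± 0.18. The number 1 wild-type value of BHLH101 lay under the first quartile of its array. The zinc and iron transporter family gene ZIP9 differed by -0.08 ± 0.14. Over 20 bHLH factors, the family of BHLH101, 8 were higher and 5 lower in both numbers. Others of the family that act in the iron response did not share a direction. They were bHLH34 (-0.44 ± 0.2), ILR3 (-0.02 ± 0.12), bHLH115 (-0.05 ± 0.13), bHLH104 (0.16 ± 0.18) and bHLH121 (0.12 ± 0.13).

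The few measured genes on lists of Fe-S assembly and of cytosolic and nuclear client proteins differed by -0.34 to 0.19. These lists leave out other Fe-S proteins, such as the Fe-S subunit of succinate dehydrogenase described below. The single measured member of the cytosolic assembly list, AT3G02280, differed by 0.10 ± 0.12. Of 4 organellar assembly genes, 3 were higher and 1 lower in both numbers, from -0.34 ± 0.19 for SUFE2, which activates plastid cysteine desulphurase, to 0.19 ± 0.14 for ISU1, a mitochondrial scaffold. Among client proteins, the 3 probe sets of DME, a DNA glycosylase with an Fe-S cluster, differed by 0.01 to 0.11, and ICU2, the catalytic subunit of DNA polymerase alpha, by -0.16 ± 0.36.

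A group of WRKY transcription factors, regulators of defence and senescence, were higher in nar1-4. WRKY53, an activator of leaf senescence, read 3.34 and 3.06 in wild type and 4.29 and 3.70 in nar1-4, WRKY22 read 5.97 and 6.42 against 6.60 and 7.07, and WRKY47 read 5.38 and 5.28 against 5.88 and 5.90. None of these 3 overlapped, with differences of 0.80 ± 0.20, 0.64 ± 0.13 and 0.56 ± 0.15. They are 3 of 7 measured WRKY genes, and 2 of the 7 were lower in both numbers. Both wild-type values of WRKY53 lay under the first quartile of their array (3.48 to 3.58), so its difference rests on a dim wild-type signal. SAG101, a senescence-associated defence regulator, read 4.50 and 4.71 against 5.05 and 4.87 (0.36 ± 0.14).

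Defence genes did not share a direction. OSM34, an osmotin-like defence protein, read 10.45 and 9.66 in wild type and 9.96 and 8.48 in nar1-4 (-0.83 ± 0.21). GRX480, a glutaredoxin of salicylic acid signalling, read 4.76 and 5.50 against 4.63 and 3.99 (-0.82 ± 0.31), and CML43, a calcium sensor, read 5.67 and 5.36 against 5.15 and 4.58 (-0.65 ± 0.14). GRX480 and CML43 lay wholly below wild type, and the OSM34 arrays overlapped. Of 15 defensin and thionin genes, 4 were higher and 4 lower in both numbers, and PDF1.2 moved in opposite directions in the 2 numbers.

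Among developmental regulators, YAB5, a YABBY factor that helps to set the lower side of leaves, read 5.0 and 5.16 in wild type and 5.73 and 5.94 in nar1-4. The genotypes did not overlap, and the difference was 0.75 ± 0.12. Over the 7 probe sets of YABBY and NGATHA factors, 3 were higher and 4 lower in both numbers.

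Families were then described by how many of their probe sets moved the same way in both numbers, whatever the size. Over all probe sets 25.8% were higher and 28.5% lower in both numbers, and over those that name 1 gene 25.7% and 28.2%. At an unadjusted limma p under 0.05 the latter held 2.0% higher and 2.12% lower. Of 47 families defined by symbol, 42 had at least 5 probe sets. More than 50% of the probe sets were lower in both numbers in 6 of these, the SPIRAL1-like, succinate dehydrogenase, GLR channel, GH9, YABBY and NGATHA, and TBL families. More than 50% were higher in 5, the nuclear RNA polymerase subunits, the OTP, CRR and LPA factors, a nuclear photosynthesis group, the autophagy ATG genes and the tetrapyrrole enzymes. After a further quantile normalization the GH9 (7 of 15), TBL (11 of 22) and GLR (4 of 8) families no longer exceeded 50% lower. Likewise the photosynthesis (6 of 15), tetrapyrrole (5 of 11) and ATG (4 of 10) families no longer exceeded 50% higher. The YABBY and NGATHA family was not repeated, and the remaining families named here stayed above 50%. Families and their examples were set up with values known and have no test.

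**Figure D3:**
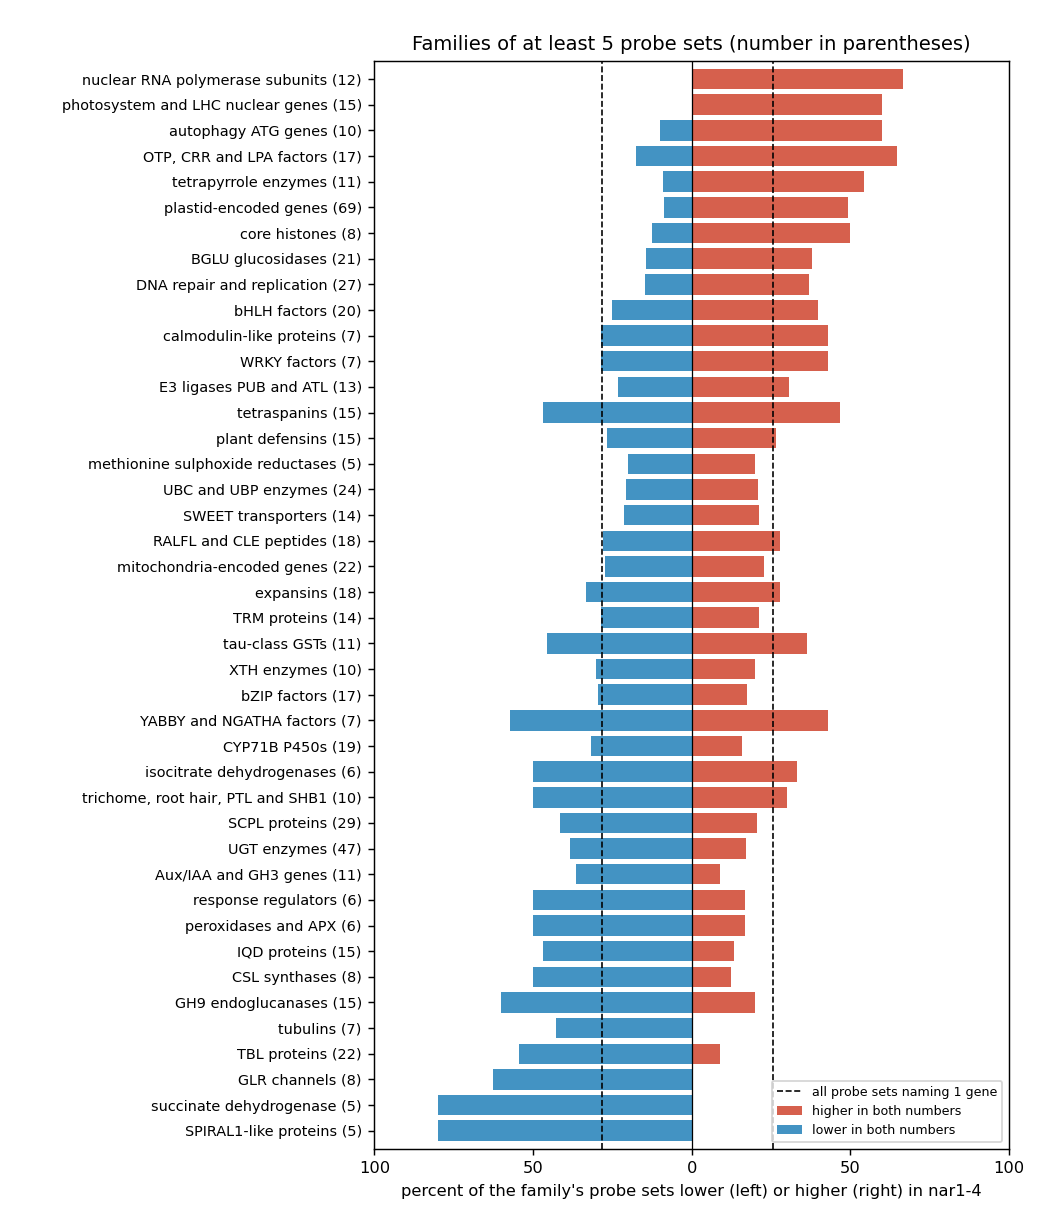
Percent of each family's probe sets that were lower (left, blue) or higher (right, red) than wild type in nar1-4 within both numbers, for the 42 families of at least 5 probe sets, with the number of probe sets in parentheses. Dashed lines mark the 28.2% lower and 25.7% higher of all probe sets that name 1 gene. The SPIRAL1-like and succinate dehydrogenase families reach 80% lower, and the nuclear RNA polymerase subunits 66.7% higher.

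Cell wall and microtubule families leaned downwards. Over 6 wall and 4 microtubule families with 118 probe sets, 53 (44.9%) were lower and 19 (16.1%) higher in both numbers, with median differences of -0.09 in number 1 and -0.06 in number 2, against 0.00 and -0.02 over all probe sets naming 1 gene. At an unadjusted p under 0.05, 10 were lower and 2 higher. In nbp35-3 the medians of the same probe sets were -0.01 and -0.12.

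Among the GH9 endoglucanases, which cut glucan chains of the wall, 9 of 15 were lower and 3 higher. GH9B13 read 8.71 and 7.67 in wild type and 6.99 and 6.75 in nar1-4, and GH9B8 read 4.32 and 6.67 against 3.95 and 5.30. GH9B13 lay wholly below wild type (-1.32 ± 0.36), and GH9B8 was lower within each number but overlapped (-0.87 ± 0.33). GH9B12 went the other way, at 0.34 ± 0.13.

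The TBL family, named after trichome birefringence and known for acetylating wall polysaccharides, had 12 of 22 members lower and 2 higher. TBL39 read 8.01 and 7.49 in wild type and 7.44 and 7.04 in nar1-4, and TBL30 read 4.97 and 4.83 against 4.51 and 4.54. Both lay wholly below wild type, with differences of -0.50 ± 0.24 and -0.38 ± 0.14. The family's differences were small, and 1 lower member had an unadjusted limma p under 0.05.

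The expansins, which loosen the wall without cutting it, were near the background as a family, with 6 of 18 lower and 5 higher and with large differences on both sides. EXLB1, an expansin-like gene, read 7.52 and 6.62 in wild type and 6.62 and 6.16 in nar1-4, EXPB3 read 6.93 and 8.14 against 6.30 and 7.45, and EXPA16 read 6.75 and 4.90 against 5.39 and 4.17. Each was lower within both numbers, and of these EXLB1 alone did not overlap between genotypes (-0.68 ± 0.16), its highest nar1-4 value and its lowest wild-type value both being 6.62 when rounded. EXPB1 stood at -0.78 ± 0.39, and EXLA1 was higher within both numbers at 0.81 ± 0.50. Of 10 XTH genes, whose products cut and rejoin xyloglucan, 3 were lower and 2 higher, led by XTH21 (-0.51 ± 0.13) and XTH20 (-0.41 ± 0.12).

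Of 5 SPIRAL1-like probe sets 4 were lower and 0 higher. After SP1L2, SP1L5 read 4.11 and 4.60 in wild type and 3.61 and 3.88 in nar1-4 (-0.61 ± 0.19), with no overlap, while SP1L4 and SPR1 differed by -0.39 ± 0.30 and -0.17 ± 0.12. Of 7 tubulins, the subunits of microtubules, 3 were lower and 0 higher, led by TUB1 at -0.47 ± 0.23. Of 15 IQD genes, calmodulin-binding scaffolds that associate with microtubules, 7 were lower and 2 higher.

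**Figure D4:**
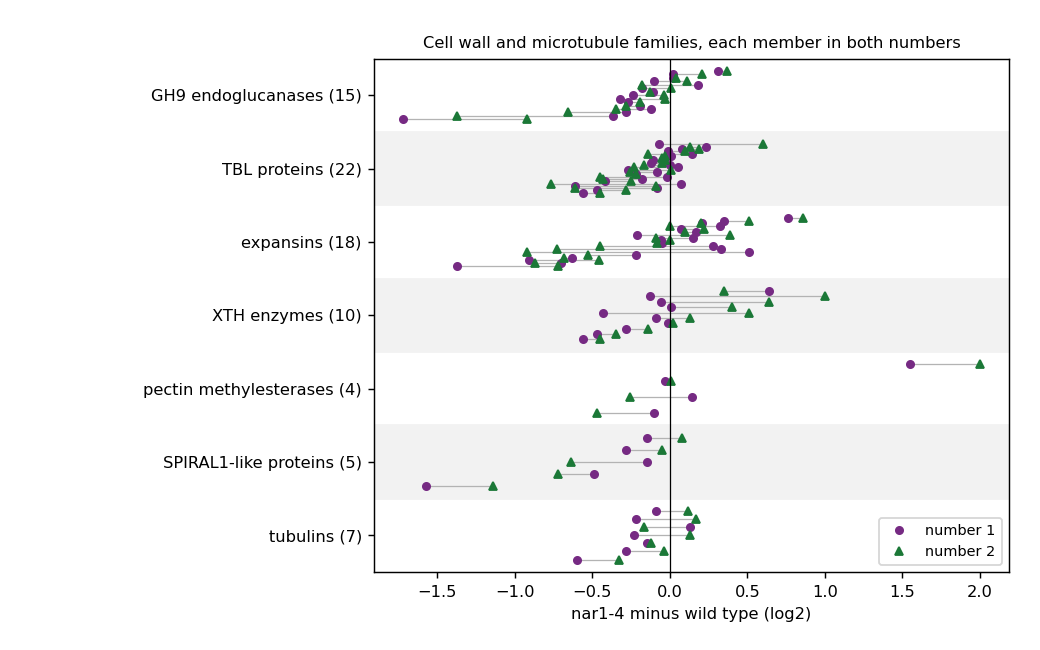
Difference between nar1-4 and wild type (log2) for every member of 7 wall and microtubule families, with a circle for number 1, a triangle for number 2 and a line joining the values of 1 probe set. GH9B13 and SP1L2 lie furthest left, and ATPMEPCRB lies furthest right at 1.55 and 2.00.

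Sugar-conjugating enzymes showed a weaker lean. Of 47 UGT genes, which join sugars to hormones and other small molecules, 18 were lower and 8 higher in both numbers. UGT71C1 read 6.19 and 5.83 in wild type and 5.58 and 4.91 in nar1-4 (-0.76 ± 0.26), and UGT85A2 read 8.19 and 8.06 against 8.68 and 8.54 (0.49 ± 0.11). Neither overlapped between genotypes. Of 29 serine carboxypeptidase-like (SCPL) genes 12 were lower and 6 higher, and of 11 tau-class glutathione transferases 5 were lower and 4 higher.

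Succinate dehydrogenase, complex II of the respiratory chain, was lower for 4 of 5 probe sets, by small amounts. SDH2-1, one of the genes for its Fe-S subunit, read 9.28 and 9.04 in wild type and 9.03 and 8.62 in nar1-4, and SDH2-2, another gene for that subunit, read 8.86 and 8.32 against 8.58 and 8.02. SDH2-1 did not overlap by this probe set, with -0.33 ± 0.12, and SDH2-2 overlapped, with -0.29 ± 0.13. A different probe set of SDH2-1, at 3.07 to 3.21 on the 4 arrays and so under their first quartiles, gave -0.07 ± 0.12. So dim a probe set says little about the gene. The genes of the flavoprotein subunit, SDH1-1 and SDH1-2, both differed by -0.17. Median differences of this family in nbp35-3 were 0.03 and -0.09.

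Plastid genes leaned upwards, again by small amounts. Of 69 probe sets of genes encoded in the plastid genome, 34 (49.3%) were higher and 6 (8.7%) lower in both numbers, with medians of 0.13 and 0.09. Their nbp35-3 medians were 0.16 in number 1 and -0.39 in number 2. A group of 15 nuclear photosynthesis genes, plotted as photosystem and LHC nuclear genes, was higher for 9 and lower for 0. Its medians were 0.09 and 0.03, with no member at an unadjusted limma p under 0.05. Among its photosystem and light-harvesting genes, PSBY, PSAE-1 and LHCB4.2 were higher in both numbers, and PSAN, LHCB4.1, PSB27, LHCB4.3 and PSBW were split. The other members higher were RCA, LIL3:2, PGRL1B, NdhN, NdhS and NdhL, which are not subunits of those complexes. The probe sets of this group are bright, and among the brightest 25% of probe sets naming 1 gene 30.6% were higher and 26.1% lower. After a further quantile normalization the counts higher were 28 and 6. In nbp35-3 this nuclear photosynthesis group also leaned upwards, with 8 higher and 0 lower in both numbers and medians of 0.13 and 0.07.

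Factors of organelle RNA editing and complex assembly in the OTP, CRR and LPA families were higher for 11 of 17 and lower for 3, at medians of 0.08 and 0.22. The nbp35-3 seedlings had 9 of them higher and 4 lower, at medians of 0.12 and 0.11. OTP84, an RNA editing factor of the pentatricopeptide repeat class, read 5.37 and 5.19 in wild type and 5.77 and 5.55 in nar1-4, with no overlap (0.38 ± 0.12). Of 11 enzymes of haem and chlorophyll synthesis, 6 were higher and 1 lower, led by HEME2, a uroporphyrinogen decarboxylase, at 0.40 ± 0.12. For these enzymes the nbp35-3 counts were 3 higher and 0 lower.

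Subunits of the nuclear RNA polymerases were higher for 8 of 12 probe sets and lower for 0. NRPE7 read 5.42 and 5.29 in wild type and 5.69 and 6.23 in nar1-4, and NRPC1, the largest subunit of RNA polymerase III, read 4.36 and 4.96 against 5.02 and 5.24. Both lay wholly above wild type, at 0.60 ± 0.19 and 0.47 ± 0.14. The medians of the 12 were -0.08 and -0.13 in nbp35-3. Of 10 ATG genes, whose products form autophagosomes, 6 were higher and 1 lower, led by ATG8E at 0.40 ± 0.15. The nbp35-3 seedlings had 5 of these ATG genes higher and 0 lower in both numbers.

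Among regulators of the epidermis, the stomatal genes were higher in nar1-4 and several trichome genes lower. The 4 measured genes of the stomatal lineage were all higher within both numbers. FMA (FAMA), which drives guard cell formation, read 5.70 and 5.19 in wild type and 6.05 and 5.94 in nar1-4, and MUTE, which acts before it, read 3.12 and 3.40 against 3.40 and 3.72. FMA lay wholly above wild type (0.55 ± 0.14). MUTE, at 0.30 ± 0.12, separated by less than 0.01, and it is a dim probe set. STOMAGEN, a peptide that promotes stomata, and SPCH, which starts the lineage, differed by 0.31 ± 0.20 and 0.18 ± 0.15.

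A group of 10 genes held 8 for trichomes and root hairs together with PTL, a petal regulator, and SHB1, a regulator of seedling growth in blue light. Of the 10, 5 were lower in both numbers and 3 higher, PTL being 1 of the 3. GIS, a zinc finger factor that promotes trichomes, read 4.80 and 4.66 in wild type and 4.49 and 4.19 in nar1-4, BLT, which shapes trichome branching, read 4.74 and 4.74 against 4.37 and 4.41, and TRY, which suppresses trichomes in neighbouring cells, read 3.59 and 3.95 against 3.26 and 3.56. All 3 lay below wild type, with differences of -0.39 ± 0.12, -0.35 ± 0.11 and -0.36 ± 0.14. The number 1 nar1-4 value of TRY lay under the first quartile of its array. The shares of stomata and trichomes in these seedlings were not measured here.

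**Figure D5:**
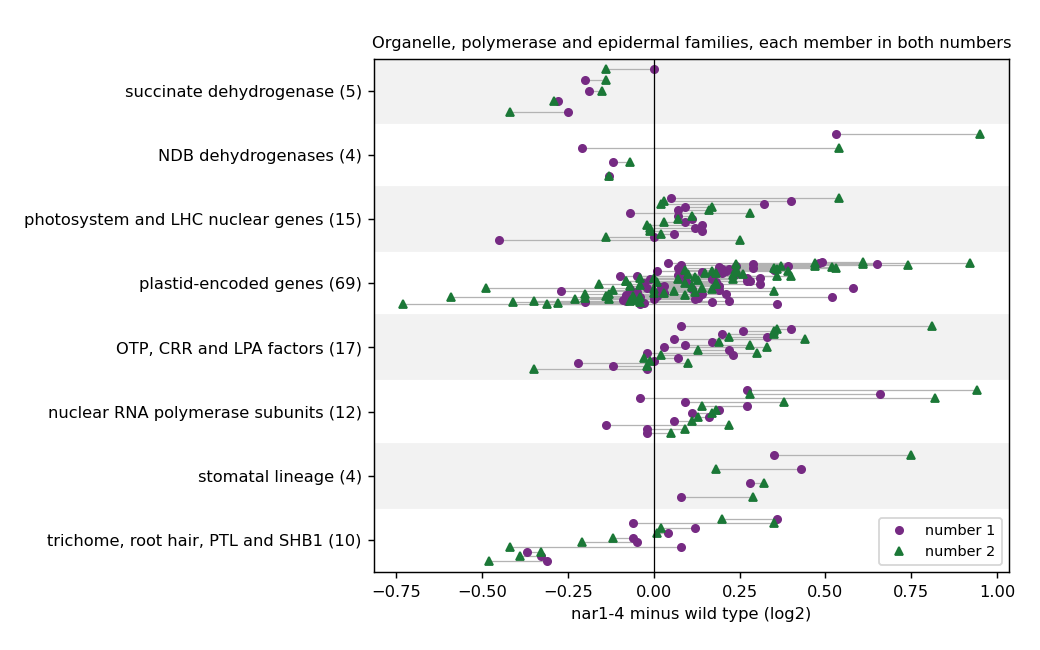
Difference between nar1-4 and wild type (log2) for every member of 8 families, with a circle for number 1, a triangle for number 2 and a line joining the values of 1 probe set. All 4 stomatal genes lie right of 0 in both numbers, and of the 5 succinate dehydrogenase probe sets 4 lie left of 0 in both.

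Root markers differed little between the genotypes. The root markers PYK10, EXPA18 and EXPA7 differed by -0.14 ± 0.14, 0.15 ± 0.27 and -0.06 ± 0.30. The seed genes M17 and M10 read 2.21 to 2.73 on the wild-type and nar1-4 arrays, under the first quartile of every array. Of 6 measured genes on a list of clock and cold genes, 4 were lower and 1 higher in both numbers. COR15A, a chloroplast protein of cold acclimation, read 9.41 and 8.13 in wild type and 7.22 and 7.51 in nar1-4, with no overlap (-1.41 ± 0.59). IAA29, an auxin-response gene, read 3.46 and 5.90 against 4.23 and 6.47 and was higher within both numbers (0.67 ± 0.18). It was the 1 higher gene among 11 Aux/IAA and GH3 genes, of which 4 were lower in both numbers.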

How the data were processed

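Whole-seedling RNA was measured on 6 arrays, 2 per genotype. The authors' deposited table holds log2 values made with RMA, per the submitters' processing notes, without a version in the sources used here. RMA normalizes arrays together, so differences in total RNA are removed. Labelling used 250 ng RNA, or 200 ng for 3 samples of unclear genotype. Depth has no meaning for arrays, and the number of arrays limits precision.

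Of 22746 non-control probe sets 13513 (59.41%) named 1 gene, 503 several and 8730 none. Symbols came from RefSeq's TAIR10.1 table, in which 13436 of these probe sets found their locus. Coordinates and sequences were not used here.

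Differences were tested with limma 3.58.1 in R 4.3.3 (lmFit, eBayes, two-sided) over 6 arrays, with replicate number as a block and Benjamini-Hochberg adjustment over 22746 probe sets at 0.05. Same-numbered arrays deviated from their genotype means together, with correlations of 0.814 (wild type, nar1-4), 0.694 (wild type, nbp35-3) and 0.674 (nar1-4, nbp35-3), so the numbers were taken to pair the samples. The fit was tested on simulated data.

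The members and lists were chosen with earlier results of these data known. Named genes were those 2-fold or more from wild type in both numbers, in 1 direction or in opposite ones, the 15 lowest p-values each way among genes of equal sign in both numbers, and up to 4 per list by p. The 47 symbol families replaced name-pattern lists that also caught clone names; family examples outside the rule were chosen after their values were seen. Alternatives were other priors, filters, scalings, array subsets and thresholds.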

Additional observations from a re-analysis of the deposited data

Results flagged for a closer look

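In 4 probe sets nar1-4 differed from wild type by at least 2-fold in opposite directions in the 2 replicate numbers. Each direction rests on 1 nar1-4 array against 1 wild-type array, and the differences between the numbers were not tested. PDF1.2, a defensin used as a jasmonate marker, was 1.15 higher within number 1 and differed by -1.52 within number 2, from arrays of 4.71 and 5.65 in wild type and 5.86 and 4.13 in nar1-4. Probe set 247717_at differed by -2.10 within number 1 and by 1.94 within number 2. Probe set 251428_at differed by 1.06 and -4.35, and probe set 262047_at by 1.26 and -1.85. None of the last 3 names a single gene.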

How the results depend on the processing

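Calls depended on the arrays in the fit. An adjusted p under 0.05 was reached by 24 probe sets in the fit of the 4 arrays with the replicate block, and by the same count without either nbp35-3 array, which leaves a lone nbp35-3 array that is fitted exactly. Without either wild-type or nar1-4 array the count was 0, so leaving out 1 array gave 0 to 24. In the fit of 6 arrays 2 probe sets passed at a threshold of 0.2. With no replicate block, 0 passed, and 84 probe sets were higher and 112 lower at an unadjusted p under 0.05, against 469 and 540 with the block. On the 4 arrays those counts were 875 and 1073, and over probe sets naming 1 gene 303 and 324. Leaving out 1 array gave 169 to 875 higher and 206 to 1073 lower, the lowest without wild-type array 2 (169 and 206), with 342 lower without nar1-4 array 2. At 1.5-fold in both numbers, 81 were higher and 78 lower, and naming 1 gene 11 were at least 2-fold higher. The GLR channel count fell from 5 to 3 without dim probe sets, and the counts of the 20 other families repeated, each in its leading direction, stayed within 1.5 times under both scalings, the filter and the gene mean. The difference of PDF1.2 changed sign without wild-type array 2 (1.18) and without nar1-4 array 2 (0.45), within -1.55 to 1.18 over the arrays left out, against -0.18 with all. The other 36 genes named by fold or lowest p-value kept their direction in all alternatives run. Genes named only from a list or family were not checked in this way. Without nar1-4 array 1 the difference of AT5G39580 was 0.79 (2.63 without nar1-4 array 2 and 0.99 without wild-type array 2), of AT1G72060 0.53 (2.22 without nar1-4 array 2), of AT3G29410 -0.81 (-2.55 without nar1-4 array 2) and of AT1G72070 0.75. AT2G04070 stood at 1.02 without nar1-4 array 2, AT4G12490 at 1.49 without wild-type array 2 and AT4G33720 at -1.19 without wild-type array 1. The cause of these shifts was not tested beyond the arrays and probe sets each alternative leaves out. Counts within a number cannot be repeated without an array, since a number holds 1 array per genotype.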
